A study of Brassica napus with 36 samples.

Results

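The enzymes of starch breakdown were examined in the leaves of rapeseed (Brassica napus) seedlings after chilling and freezing. A locus was taken as a member when the Swiss-Prot description in the deposited table contained the words beta-amylase, alpha-amylase, alpha-glucan water dikinase, phosphoglucan, isoamylase or 4-alpha-glucanotransferase, a rule that uses no measured value, although this group of genes was taken up with earlier results of these data known. The rule found 111 of the 106340 genes in the table. These were 36 beta-amylases, 19 water dikinases, 14 isoamylases, 13 phosphoglucan phosphatases, 8 alpha-amylases and 7 4-alpha-glucanotransferases, which makes 97 enzyme loci, and the words also caught 13 alpha-amylase inhibitors and 1 locus whose best match was a bacterial alpha-amylase. The A and the C subgenome of this allotetraploid held 55 members each, and 1 member was not placed.

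Leaf starch is made in the chloroplast by day and broken down at night. In Arabidopsis, glucan water dikinase (GWD1) and phosphoglucan water dikinase (PWD) phosphorylate the granule surface and so loosen it, beta-amylases (BAM) then release maltose, the phosphatases SEX4 and LSF2 remove the phosphate again, isoamylase 3 (ISA3) cuts the branch points, and the glucanotransferases DPE1 and DPE2 recycle maltotriose in the chloroplast and maltose in the cytosol. Cold is known to raise maltose and soluble sugars in leaves, and BAM3 is the beta-amylase best known for a cold response. Protein names below are those of the best Swiss-Prot match, and roles are those known from Arabidopsis.

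HX17 and HX58 are early-maturing semi-winter varieties, and each gave 6 groups of 3 libraries of total leaf RNA. The study reports that they differ in cold tolerance and describes HX17 as the more tolerant. Acclimated seedlings grew for 4 weeks at 20° in the light and 16° in the dark, spent 14 days at 4°, and then passed 12 h at 4° (group CA) or at -4° (group FA); their controls (MA) stayed at 20°/16°. Seedlings given a cold shock grew for 6 weeks at 20°/16° and went straight to 12 h at 4° (CB) or -4° (FB), with the controls MB again held at 20°/16°. The day had 14 h of light. For the acclimated seedlings the 12 h treatment ran from 8 pm to 8 am with 10 h of darkness and 2 h of light, and the third leaf counted from the tip was taken at 8 am after the cold. The hours of the cold shock treatments and the hour at which the controls were taken are not stated separately, so a difference in the time of day was not tested. The methods of the study describe 3 biological replicates per condition, whereas its results section once calls the 3 replicates technical. The sources do not say whether each library is a separate plant or a pool. The p-values therefore measure the spread between these libraries.

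The 36 libraries held 32214015 to 59290772 counts, of which the members took 0.0956 to 1.096%. Leaf identity was checked with genes for the Rubisco small subunit and the chlorophyll-binding proteins, whose summed level was 85392 to 267398 FPKM (fragments per kilobase of gene model, scaled to the size of the library, so a level per length), against 19.4 to 83.4 FPKM for seed storage and oil body genes and 1.93 to 21.1 FPKM for Casparian strip genes of the root endodermis. The COR15 genes, classical cold markers, summed to 61.9 to 706 FPKM in the control libraries and to 1645 to 15146 FPKM in the treated ones, without overlap. In whole leaves a change in the cells present and a change of RNA per cell cannot be told apart. Of the members, 65 had a mean of 1 FPKM or more over the 36 libraries and 22 had no count in any library.

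Each treatment was compared with its own control on the counts of all genes with the quasi-likelihood test of edgeR, and a member was called higher or lower at a fold change of 2 or more with a Benjamini-Hochberg adjusted p under 0.005 over all genes tested. Fold changes are given on the log2 scale ± SE, and levels in FPKM. Shares of all genes refer to these edgeR calls, and none is given at an unadjusted p or for DESeq2. Of the 111 members, 78 passed the filter on low counts in at least 1 of the 8 comparisons and 63 in all of them; 33 were never tested. Of the tested members, 53 were called at least once, 27 only higher, 17 only lower and 9 in both directions, and 25 were never called. Of the 61178 genes tested in at least 1 comparison, 47.9% were called at least once, 23.5% only higher, 21.7% only lower and 2.76% in both directions. Exactly 5 members, all of them dikinases, were called higher in all 8 comparisons and 0 were called lower in all 8, against 0.0932% and 0.0409% of all genes.

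After acclimation the members called against MA were nearly all higher. In HX17, 12 h of chilling (CA) raised 8 of 68 tested members and lowered 0, where 0.608% of all tested genes were higher and 0.449% lower; 36 members had an unadjusted p under 0.05, and DESeq2 called 27. These calls were fragile: 0 remained called without MA replicate 1, 2 without CA replicate 2, 2 without MA replicate 3, 3 without MA replicate 2 and 4 without CA replicate 1. Freezing after acclimation (FA) raised 24 of 68 in HX17 and lowered 0, against 5.26% and 2.63% of all genes. In HX58 the CA seedlings had 16 of 68 members higher and 3 lower, against 2.6% and 2.77% of all genes, and this total of 19 was 5 without CA replicate 1, 7 without CA replicate 3, and 9 without CA replicate 2 or without MA replicate 1. The HX58 FA seedlings had 26 of 73 higher and 1 lower, against 9.42% and 7.26%. The median log2 fold change of the tested members was 0.43 (HX17 CA), 1.14 (HX17 FA), 0.25 (HX58 CA) and 0.60 (HX58 FA), where the medians of all tested genes lay at -0.03, -0.01, -0.05 and 0.04. Set against the other control group MB, HX17 CA had 14 members higher and 3 lower and HX17 FA 34 and 1, but HX58 CA had 11 higher and 10 lower and HX58 FA 23 and 10, so the near absence of lower calls in HX58 holds only against MA. No share of all genes is given for fits against the other control, and whether all genes shifted alike was not tested.

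After cold shock the directions split. HX17 CB had 12 of 70 members higher and 7 lower, against 5.98% and 8.19% of all genes, and HX17 FB had 21 of 71 higher and 8 lower, against 12.8% and 13.3%. In HX58 the balance turned, with 12 higher and 23 lower of 72 in CB, against 14.2% and 11.8% of all genes, and 16 higher and 19 lower of 73 in FB, against 16.1% and 13.6%. The median of the tested members was 0.15 (HX17 CB), 0.58 (HX17 FB), -0.64 (HX58 CB) and -0.26 (HX58 FB), beside 0.01, -0.04, -0.02 and 0.01 for all genes. The HX17 CB total of 19 was 6 without MB replicate 1, 7 without MB replicate 2, 8 without MB replicate 3, 11 without CB replicate 2 and 12 without CB replicate 1, and the HX17 FB total of 29 was 16 without MB replicate 1 and 18 without MB replicate 3. In HX58 the CB total of 35 was 22 without CB replicate 3 or without MB replicate 2, and the FB total of 35 was 21 without FB replicate 2. Set against the other control group MA, HX58 CB had 12 members higher and 6 lower and HX58 FB had 21 higher and 6 lower, so that most of the lower calls in HX58 rest on the MB libraries. In HX17 the same change of control gave 11 higher and 3 lower in CB and 22 higher and 0 lower in FB, so that each of the 8 lower calls of HX17 FB was lost. Here too no share of all genes is given for the other control, so these counts cannot be set against all genes.

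**Figure D1:**
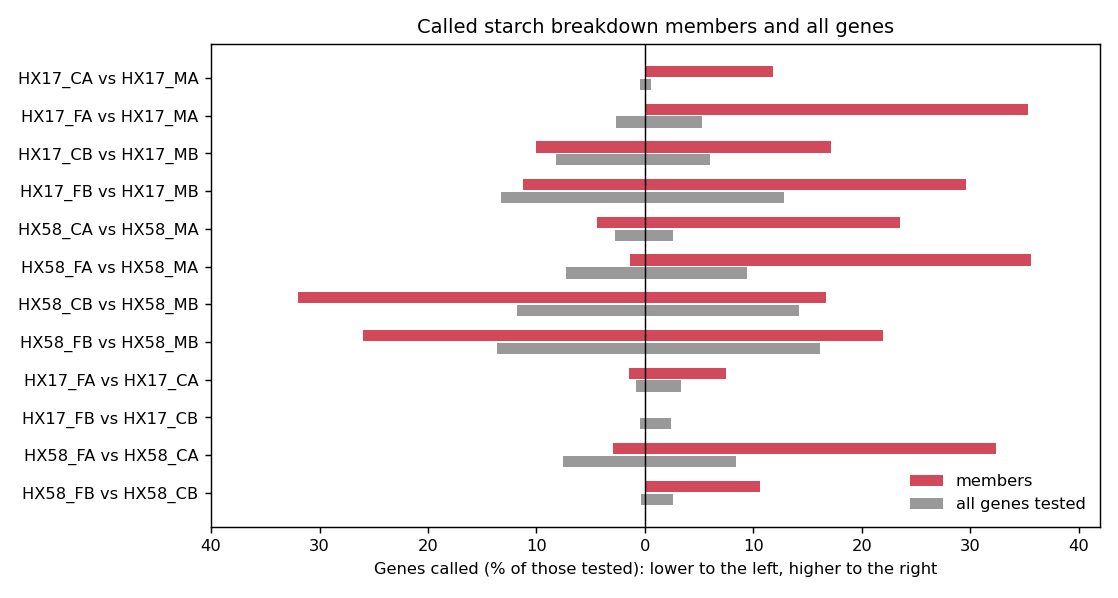
Share of tested genes called higher (right of 0) and lower (left of 0), in percent, in each treatment against its control and each freezing against its chilling group, for the members (red) and for all genes tested (grey; edgeR quasi-likelihood test, fold change of 2 or more and adjusted p under 0.005). Against MA the acclimated groups show almost only higher calls among the members, and the 23 of 72 members lower in HX58 CB form the longest bar to the left.

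The granule-phosphorylating dikinases gave the clearest rise. The GWD1 locus BnaC08g49610D (chromosome C08, unanchored part, 4278637 to 4287255) stood at 0.356, 0.51 and 1.16 FPKM in the HX17 MA libraries, at 7.77, 10.3 and 10.8 in CA and at 5.91, 6.83 and 15.8 in FA. It stood at 0.516, 0.671 and 0.687 FPKM in HX17 MB, at 20.6, 27.7 and 37.8 in CB and at 44, 74.6 and 34.1 in FB. All treated libraries lay above all control libraries. The mean was highest in FB, although the FB and CB libraries overlapped and FB against CB was not called. The rise was 3.92 ± 0.51 in FA (adjusted p = 0.00053), 5.30 ± 0.29 in CB (2.7e-05), 6.41 ± 0.38 in FB (7.9e-06) and 3.85 ± 0.42 in CA (0.0021), the last of which was lost without MA replicates 1 or 2 or CA replicates 1 or 2 (adjusted p up to 0.0143). In HX58 the same locus went from 1.62, 1.57 and 1.46 FPKM in MA to 10.5, 7.16 and 10.8 in CA and 19.1, 18.1 and 12.2 in FA, and from 1.3, 1.17 and 1.12 in MB to 20.1, 12.3 and 17.8 in CB and 61.9, 59.9 and 44.1 in FB. Again no control library reached a treated one, and the fitted rises were 2.66 ± 0.23, 3.39 ± 0.22, 3.75 ± 0.22 and 5.49 ± 0.22 in CA, FA, CB and FB.

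Its counterpart BnaA09g47750D (chromosome A09, 32136029 to 32144387) followed the same course. It held 0.465 to 0.573 FPKM in HX17 MA and 0.759 to 1.01 in MB, and 36.6, 57.5 and 34.7 FPKM in FB, a rise of 5.6 ± 0.30 (adjusted p = 5.4e-06). Its HX17 CA call (3.74, 0.00069) was lost without MA replicates 1 or 3 (up to 0.0116). In HX58 FB it held 55.9, 50.8 and 42.8 FPKM against 1.2, 1.33 and 0.983 in MB, a rise of 5.38 ± 0.20 (5.6e-06). The lower GWD1 locus BnaA08g25580D, with 0.143 to 0.948 FPKM over the 12 control libraries, was also called higher in all 8 comparisons, by 1.43 ± 0.27 (HX17 CB) to 3.87 ± 0.29 (HX17 FA), although its HX17 CB call was lost when any of the 6 libraries was left out (adjusted p up to 0.0252). Its HX17 CA call held only without CA replicate 3 (up to 0.0138), its HX58 CA call was lost without any CA library (0.00848) and its HX58 CB call without MB replicate 2 or CB replicate 3 (0.00684). The GWD1 locus BnaC08g14540D, named after its values were seen, was called higher in 6 of the 8 comparisons and not in the CB groups (0.75 and 0.55), and each of its CA calls was lost in 5 of the 6 smaller fits, MA replicates 1 and 2 and CA replicates 1 and 2 among them (up to 0.0281). The fifth GWD1 locus did not follow: BnaAnng25950D had 16.2, 35.5 and 33.3 FPKM in HX58 MA and 3.55, 5.38 and 5.55 in CA, a fall of 2.48 on the log2 scale (adjusted p = 0.001), lost without any of the 3 CA libraries (up to 0.00811), and it was lower in HX58 FB by -1.28 ± 0.18 (0.00047). Its model has a coding length of 630 bases, where the other GWD1 models have 4119 to 4143, so it covers only part of the gene.

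**Figure D2:**
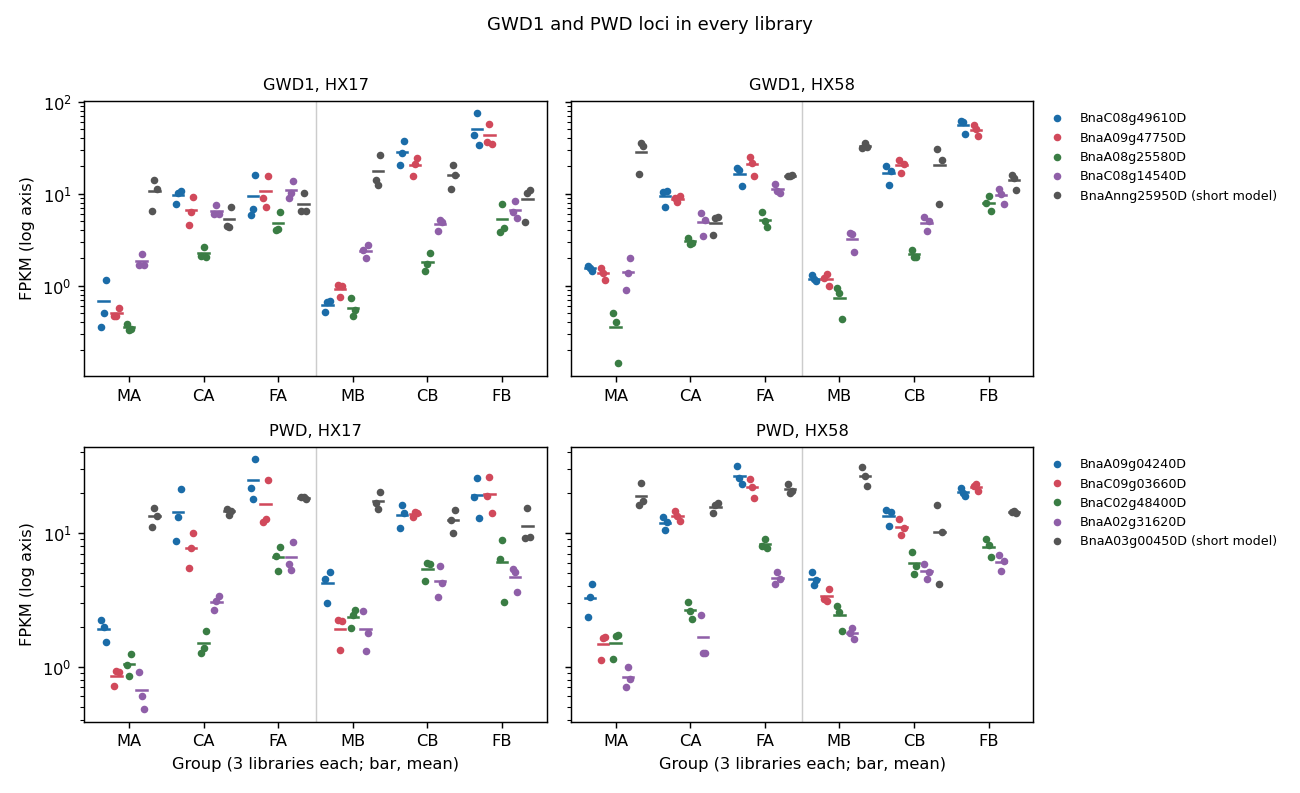
FPKM (log axis) of 5 GWD1 loci (top) and 5 PWD loci (bottom) in each of the 3 libraries per group, HX17 left and HX58 right; horizontal bars are group means. The means of the coloured loci are higher in each treated group than in its control, with BnaC08g49610D highest in FB (up to 74.6 FPKM), whereas the short models in dark grey were never called higher.

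PWD acts on glucan that GWD1 has already phosphorylated, and its leading pair of long loci was also higher in all 8 comparisons. BnaC09g03660D (chromosome C09, 2069849 to 2075151) had 0.722, 0.923 and 0.911 FPKM in HX17 MA, 5.48, 7.66 and 10.1 in CA and 12.2, 12.8 and 24.8 in FA, and in HX58 it had 1.12, 1.63 and 1.66 in MA, 14.6, 13.4 and 12.4 in CA and 25.4, 22.0 and 18.3 in FA. The groups did not overlap. The rise in FA was 4.38 ± 0.33 in HX17 (adjusted p = 1.9e-05) and 3.89 ± 0.21 in HX58 (3.1e-06), and in FB it was 3.43 ± 0.31 (4.9e-05) and 2.66 ± 0.22 (3.9e-05). BnaA09g04240D rose in all 8 as well, by 1.49 ± 0.23 (HX17 CB) to 3.80 ± 0.33 (HX17 FA). The HX17 CA call of BnaC09g03660D was lost without MA replicates 1 or 3 or CA replicate 2 and that of BnaA09g04240D without any MA library or CA replicate 2 (adjusted p up to 0.0138 and 0.021), and the HX17 CB call of BnaA09g04240D was lost without any of the MB libraries or CB replicate 2 (up to 0.0109). The PWD match with the highest mean, BnaA03g00450D, was called in 0 of the 8, with log2 values from -1.49 (HX58 CB) to 0.57 (HX17 FA); its coding length is 1185 bases, against 3540 and 3549 in the pair above. A second long pair, BnaC02g48400D and BnaA02g31620D, named after its values were seen, was higher in 4 and 5 of the 8, both FA groups among them (2.76 and 3.39 in HX17, 2.44 and 2.45 in HX58). GWD2, a dikinase outside the chloroplast, was different: of its 3 tested loci 0 were called higher and 1 was called lower in each FB group, and its leading loci BnaC01g41540D and BnaA01g35130D were never called. Summed over the class, the dikinases had a mean of 37.5 FPKM in HX17 MA, 77.3 in CA and 126 in FA, with SDs of 5.74, 13.3 and 28.5, and 69.2, 84.5 and 168 in the HX58 groups, with SDs of 16.6, 5.1 and 23.7. These sums include GWD2 and the short models, so they do not give the rise of the long loci alone. The short GWD1 model BnaAnng25950D took 5.16 to 84.1% of the GWD1 FPKM over the HX17 libraries and 9.86 to 88.2% over the HX58 libraries.

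Among the beta-amylases, BAM3, the plastid enzyme that makes most of the maltose of the night in Arabidopsis, was the most abundant. Of its 7 loci, 4 were tested. Their summed level had a mean of 211 ± 40.0 FPKM in HX17 MA (SD, n = 3), 602 ± 208 in CA and 2381 ± 510 in FA, and 238 ± 71.9, 833 ± 194 and 4282 ± 431 in the corresponding HX58 groups. This is an 11.3-fold (HX17) and 18-fold (HX58) difference between FA and MA, without overlap between libraries. BAM3 made up 43.2% of the summed beta-amylase FPKM in HX17 MA and 69.2% in FA, and 43.6% and 74.5% in HX58. The larger share was not particular to FA. It was 70.4% in CA, 66.4% in CB and 70.7% in FB of HX17, and 73.0%, 74.1% and 68.4% in HX58. The MB controls had 41.7% in HX17 and 60.6% in HX58.

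**Figure D3:**
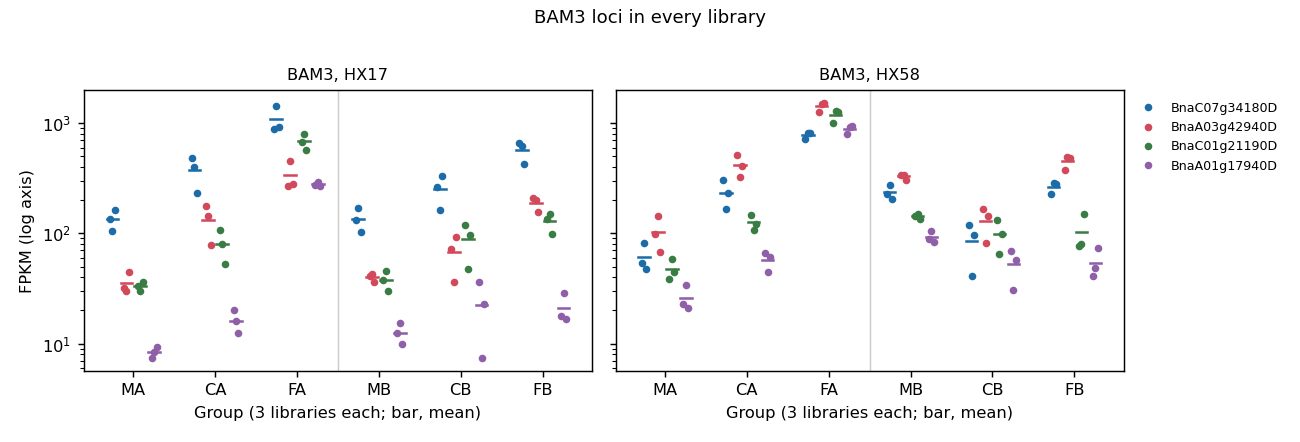
FPKM (log axis) of the 4 tested BAM3 loci in each of the 3 libraries per group, HX17 left and HX58 right; horizontal bars are group means. The mean of each locus is highest in FA, and BnaA01g17940D reaches 269 to 291 FPKM there in HX17 while its CB and FB libraries overlap.

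The 4 BAM3 loci are described as an A01 and C01 pair and an A03 and C07 pair. BnaA01g17940D (chromosome A01, 9483862 to 9485751) had 7.41, 8.41 and 9.25 FPKM in HX17 MA, 20.2, 16 and 12.4 in CA and 277, 291 and 269 in FA, and 22.9, 34.4 and 20.8, 65.9, 44.8 and 61.3, and 789.7, 930.1 and 943 in the same HX58 groups. After cold shock it had 36.4, 7.46 and 23.0 FPKM in HX17 CB and 17.8, 28.5 and 16.7 in FB, and 69.3, 30.4 and 57.3 and 41, 48.3 and 73.6 in HX58. In acclimated leaves every frozen library lay above every chilled one, whereas the CB and FB libraries overlapped. The log2 difference of FA from CA was 4.17 ± 0.26 in HX17 (adjusted p = 4.2e-05) and 3.84 ± 0.16 in HX58 (3.3e-07). The C01 locus BnaC01g21190D, named after its values were seen, was alike at 3.15 ± 0.31 (0.0003) and 3.12 ± 0.15 (6e-07), and its FB against CB values of 0.84 and 0.15 were not called.

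The other pair was higher after freezing along both routes in HX17. BnaC07g34180D (chromosome C07, 37099448 to 37101348) had 136, 104 and 162 FPKM in HX17 MA, 483, 403 and 233 in CA and 890.5, 1419.9 and 930.0 in FA, and 132, 171 and 102 in MB, 262, 162 and 331 in CB and 664, 617 and 422 in FB. BnaA03g42940D (chromosome A03, 21561950 to 21563838) had 32.1, 29.7 and 45.1 FPKM in HX17 MA and 270.1, 457 and 284 in FA, and 41, 42.8 and 36.0 in MB and 209, 201 and 158 in FB. Neither locus overlapped between these freezing groups and their controls, and the rises were 3.11 ± 0.26 (3.8e-05) and 3.34 ± 0.28 (3.6e-05) in FA, and 2.12 ± 0.31 (0.00056) and 2.30 ± 0.23 (8.1e-05) in FB, of which the FB call of BnaC07g34180D was lost without MB replicate 1 (0.00569). In HX58 they rose in FA by 3.67 ± 0.25 and 3.76 ± 0.30, and their FB values against MB were 0.14 and 0.43, not called, but 1.91 each against MA, called. Their HX58 CA rises of 1.98 and 2.05 were lost without MA replicate 1 or CA replicates 1 or 3 (up to 0.0102), and against MB they were 0.21 (0.51) and 0.56 (0.054), not called, while the FA values against MB were 1.85 and 2.22, called. FB against CB gave 1.47 (0.023) and 1.78 (0.015) in HX17, not called. BnaC01g21190D was also higher in HX17 FB (1.82 ± 0.27, 0.00059), a call lost without MB replicate 1 (0.00524). The weight of the pair differed between the varieties: BnaC07g34180D took a median of 61.1% of the BAM3 FPKM over the 18 HX17 libraries (42.1 to 65.2%) and 25.9% over the 18 HX58 libraries (18.1 to 31.7%), so the ranges did not overlap, and BnaA03g42940D took 17.5% and 42.3%. Whether reads are shared between such copies, or map less well in 1 variety, was not tested.

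The HX58 controls bear on these loci. Summed BAM3 stood at 802, 872 and 732 FPKM in the HX58 MB libraries, against 213, 319 and 182 in HX58 MA, a 3.37-fold difference between groups grown at the same temperatures, without overlap. The 4 loci differed by 1.45 to 1.80 on the log2 scale with adjusted p from 0.018 to 0.032, and none was called. Against MB, HX58 CB was lower at BnaC07g34180D by -1.55 ± 0.31 (adjusted p = 0.003) and at BnaA03g42940D by -1.40 ± 0.26 (0.0018); against MA the same CB libraries gave 0.25 (0.6) and 0.11 (0.82). Both calls were also lost without MB replicates 1 or 2 or CB replicate 3, and the former without MB replicate 3 (adjusted p up to 0.0137). Over all members, MB against MA gave 0 calls in HX58, where 0.00563% of all genes were called higher and 0.00938% lower. Of the 75 tested members, 32 had an unadjusted p under 0.05 and 15 were called by DESeq2. In the smaller fits 2 were called without MA replicate 2 and 1 without MB replicate 3. In HX17, MB against MA gave 0 calls, where 0.864% of all genes were called higher and 0.239% lower. Of the 68 tested members, 16 had an unadjusted p under 0.05 and 3 were called by DESeq2.

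BAM9, a plastid protein without known catalytic activity, had higher calls in the acclimated groups and none after cold shock; whether the routes differ in their response to chilling was not tested. BnaA03g07240D (chromosome A03, 3214063 to 3216446) had 6.92, 5.4 and 4.95 FPKM in HX17 MA, 65.8, 48 and 22.0 in CA and 167, 298 and 148 in FA, and 4.53, 7.89 and 6.51, 71.9, 47.8 and 66.9, and 138, 192 and 188 in HX58. The groups were fully separated, with a rise of 5.24 ± 0.35 in HX17 FA (adjusted p = 1e-05), 3.36 ± 0.25 in HX58 CA (8e-05) and 4.77 ± 0.26 in HX58 FA (3.1e-06). The HX17 CA value of 2.98 ± 0.41 (0.0048) was called only with CA replicate 3 left out among the 6 smaller fits (adjusted p up to 0.0272). Against MB the values were smaller, at 1.37 (0.0016) in HX58 CA and 2.73 (1.7e-05) in HX58 FA, called, and 1.86 (0.022) in HX17 CA, not called, and the summed BAM9 level of HX58 CA (193, 135 and 153 FPKM) overlapped with that of MB (156, 185 and 73.1). The difference between the freezing steps of the routes was not called at this locus (2.19, 0.11 in HX17 and 1.00, 0.039 in HX58). After cold shock the locus did not rise: HX17 CB and FB gave -0.02 and -0.04, and HX58 CB and FB were lower than MB by -1.76 ± 0.22 (0.00028) and -1.42 ± 0.25 (0.0018). Against MA these HX58 values were 0.26 and 0.56, neither called, and the FB call was lost without MB replicates 1 or 2 or FB replicates 1 or 2 (adjusted p up to 0.0103). Of the 5 tested BAM9 loci, 4 were higher in HX17 FA and 3 in HX58 FA, and 0 were higher in any cold shock group.

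BAM1, which acts in guard cells and under drought and osmotic stress in Arabidopsis, was lower after a chilling shock and higher after freezing of acclimated leaves. BnaA07g05790D (chromosome A07, 6121654 to 6124373) had 107, 75.5 and 111 FPKM in HX17 MA, 46.5, 31.7 and 25.2 in CA and 278, 372 and 255 in FA. In HX58 it had 97.3, 136 and 77.2 FPKM in MA, 63.4, 48.9 and 53.8 in CA and 503, 537 and 560.1 in FA, and 138, 151 and 126 in MB, 26.6, 14.4 and 21.4 in CB and 97.9, 134 and 172 in FB. The chilled libraries lay below their controls in every one of these groups, and the FA libraries lay above. HX58 CB was lower by -2.79 ± 0.23 (adjusted p = 4.9e-05), FA was higher by 2.35 ± 0.24 (8.3e-05), and FB did not differ detectably from MB (-0.05, 0.88). The CA values of -1.51 (0.016) in HX17 and -0.85 (0.028) in HX58 were not called, and HX17 FA was higher by 1.72 ± 0.24 (0.0009). FA exceeded CA by 3.19 ± 0.30 (0.00023) in HX17 and by 3.16 ± 0.12 (2.3e-07) in HX58, and in HX58 FB exceeded CB by 2.78 ± 0.29 (0.00052), a call lost without CB replicate 3 (0.00649). The C09 copy BnaC09g21440D had values of -2.93 ± 0.26 (5.9e-05) in HX58 CB and 3.11 ± 0.13 (3e-07) for HX58 FA against CA, and it was called in HX58 CA (-1.47, 0.0018), a call lost without MA replicate 1 or any CA library (0.0139). Against the control MA, the HX58 CB values were -2.53 and -2.69 and still called. The HX17 CB values of the 2 loci, -1.33 and -1.20, were called with all 6 libraries and lost without any MB library or CB replicates 1 or 2 (adjusted p up to 0.0239).

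BAM2, a further plastid beta-amylase, was higher in the chilled and the cold shock groups and was not called in FA. BnaCnng02280D (C subgenome, unplaced) had 1.34, 1.39 and 2.49 FPKM in HX17 MA, 21.3, 24.2 and 34.8 in CA but 3.28, 3.55 and 4.89 in FA, and 1.9, 2.19 and 1.73 in MB, 17.6, 31.7 and 22.6 in CB and 34.1, 58.5 and 29.3 in FB. The FA libraries overlapped with none of the CA, CB or FB libraries and lay just above the controls. The rise was 3.95 ± 0.33 in CA (adjusted p = 0.00069, lost without MA replicate 1 at 0.011), 3.39 ± 0.26 in CB (9.4e-05) and 4.44 ± 0.33 in FB (2e-05), against 1.27 (0.02) in FA. In HX58 the rises were 1.69 in CA, 1.23 in CB and 2.21 ± 0.27 (0.00024) in FB, of which the CA call was lost in 5 of the 6 smaller fits, all but the one without MA replicate 2 (0.0122), and the CB call without MB replicates 1 or 3 or CB replicates 1 or 3 (0.0198). There the locus had 7.41, 9.28 and 9.45 FPKM in CA and 2.9, 3.37 and 2.93 in FA, and FA was lower than CA by -2.71 ± 0.27 (0.00034) in HX17 and by -1.62 ± 0.19 (0.00016) in HX58. The A09 copy BnaA09g51890D was lower in HX58 FA than CA by -1.36 ± 0.15 (0.00012).

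**Figure D4:**
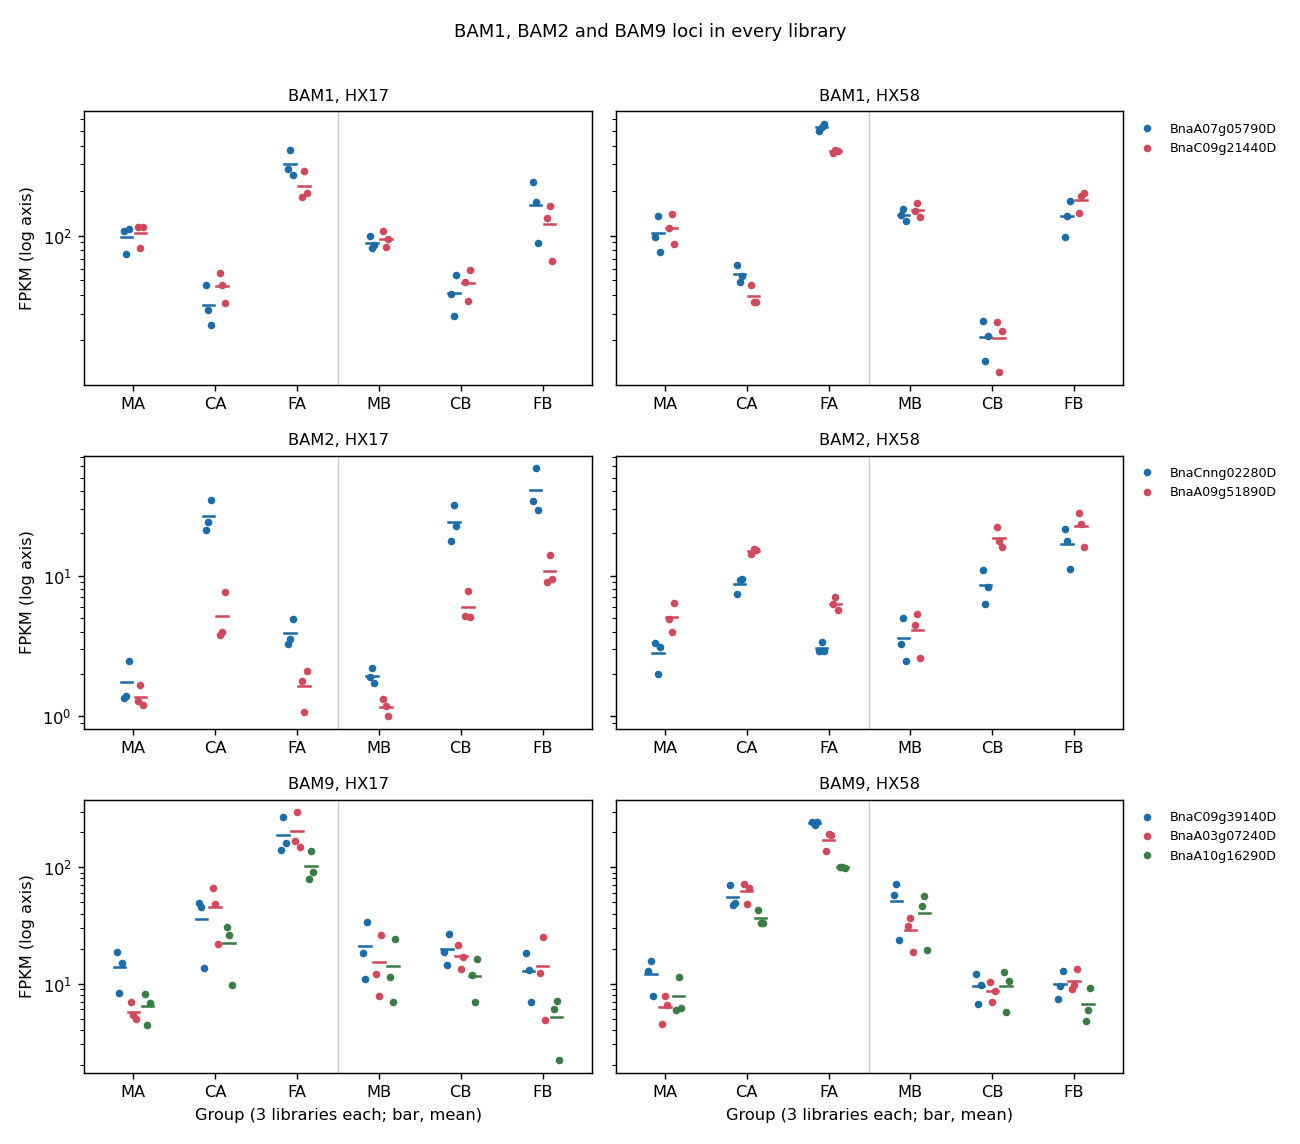
FPKM (log axis) of 2 BAM1, 2 BAM2 and 3 BAM9 loci in each of the 3 libraries per group, HX17 left and HX58 right; horizontal bars are group means. BAM1 is lowest in the chilled groups CA and CB, BAM2 is low in FA (2.9 to 4.89 FPKM at BnaCnng02280D), and BAM9 is highest in FA.

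Other beta-amylases fell after cold shock. BAM6, also a plastid protein, had 26.4, 22.9 and 21.8 FPKM at BnaA05g10780D in HX58 MB, 1.12, 0.0749 and 0.563 in CB and 0.463, 0.342 and 1.03 in FB, and 31.3, 30.5 and 24.4, 0.43, 0.0748 and 0.38, and 0.218, 0.203 and 0.316 at BnaC04g12480D. No library overlapped, and the falls were -5.44 ± 0.62 (adjusted p = 0.00016) and -6.68 ± 0.44 (2.6e-05) in CB and -5.28 ± 0.43 (4.1e-05) and -6.87 ± 0.26 (5.6e-06) in FB, called with every library left out in turn. In HX17 both loci were also called lower in CB (-3.11 and -5.26) and FB (-2.69 and -5.02), but these calls were lost without any of the 3 MB libraries (adjusted p up to 0.0173) and were not made against MA. In the acclimated HX58 groups BnaA05g10780D was lower by -1.26 in CA and -1.34 in FA, calls lost without any CA or any FA library (up to 0.0238). BAM7, which carries a DNA-binding domain and acts in the nucleus, was lower in HX58 CB at both loci, by -2.65 ± 0.24 (6e-05) at BnaC04g04570D and by -2.31 ± 0.39 (0.0013) at BnaA05g05170D; the latter was lost without MB replicate 2 or CB replicate 3 (0.00662), and against MA it was not called (-1.60, 0.027), whereas BnaC04g04570D was (-2.03, 0.00078). In HX58 FB both were lower, by -1.50 (0.0006) and -1.25 (0.0038), the second lost without any 1 of the 6 libraries (0.0168), and BnaC04g04570D was lower in HX17 FB (-1.97, 0.00077), lost without MB replicates 1 or 3 (0.00608). BAM8, the related DNA-binding protein, was called at 0 of its 2 loci in any of the 8. BAM5, an enzyme outside the chloroplast, was scarce. Its locus BnaCnng71190D, named after its values were seen, had 1.78, 1.86 and 3.55 FPKM in HX17 MB and 9.59, 9.14 and 3.32 in HX58 MB and no count in any CB library, which puts CB at least 17.2-fold (HX17) and 51.4-fold (HX58) lower, taking 3 counts per library as the floor. The MA libraries held only 0.319, 0.718 and 0.0507 FPKM in HX17 and 0.124, 0.0428 and 0 in HX58, so the fall rests on the MB controls. BAM4, a plastid protein without catalytic activity, was called once, at BnaA02g08900D, named after its values were seen, in HX58 FA (1.71 ± 0.23, 0.0005).

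Among the phosphoglucan phosphatases, SEX4 had no lower call, and of its 5 or 6 tested loci 0, 2, 3 and 5 were higher in HX17 CA, FA, CB and FB and 2, 2, 2 and 4 in HX58. The locus with the highest mean was called only after cold shock. BnaC08g23490D (chromosome C08, 25701779 to 25704637) had 7.65, 7.84 and 5.34 FPKM in HX17 MB, 26.7, 41.9 and 34.8 in CB and 51.1, 90.9 and 54.8 in FB, and 15.7, 13.5 and 11.4, 54.1, 62.3 and 61.7, and 108, 104 and 67.5 in HX58. These groups did not overlap, and the rises were 2.08 ± 0.25 (adjusted p = 0.00056, lost without MB replicate 1 at 0.00534), 3.29 ± 0.30 (5.8e-05), 2.12 ± 0.22 (0.00011) and 2.75 ± 0.21 (3.1e-05). Against MA the CB values were 1.30 (0.009) and 1.23 (0.0072), not called, and the FB values 2.55 (0.0004) and 1.82 (0.001). In the acclimated groups it was not called, with 1.39, 0.80, 0.38 and 0.26 for HX17 CA and FA and HX58 CA and FA. Other SEX4 loci, named after their values were seen, were higher after acclimation as well. BnaC04g28370D had 2.17, 1.66 and 1.98 FPKM in HX17 MA and 9.27, 9.67 and 11.7 in FA (2.5 ± 0.24, 9e-05), and 1.42, 2.32 and 2.23 and 15, 16.8 and 15.5 in HX58 (2.98 ± 0.21, 1e-05), without overlap. Its model has a coding length of 2601 bases, where that of BnaC08g23490D has 1134. Whether the longer model takes in counts of a further gene was not tested. BnaC04g28370D was called in 5 of the 8, of which HX17 CB (1.43) was lost in all smaller fits but the one without CB replicate 3 (0.0244) and HX58 CA (1.82) without MA replicate 1 or CA replicates 1 or 2 (0.00834). BnaA09g32650D was called in 7 of the 8, all but HX17 CA (3.50, 0.0073), and its FB rises of 4.42 and 3.71 held with each library left out, whereas the other 5 calls were each lost in 2 to 6 of the 6 smaller fits, MA or MB replicate 1 among them (up to 0.0176). The A04 locus BnaA04g05650D of the same coding length (1134 bases) was called in 0 of the 8, with values from -1.05 to 0.27. LSF2, which removes a different phosphate from glucan, was lower after cold shock at BnaA05g27980D, where 3.23, 2.44 and 1.64 FPKM in HX17 MB stood against 0.208, 0.201 and 0.0572 in CB, a difference of -4.15 ± 0.58 (0.0011), lost without MB replicates 1 or 2 (0.0091). It was also called lower in HX17 FB (-2.29) and in HX58 CB (-2.36) and FB (-2.21), each lost without MB replicates 1 or 2 and further libraries (adjusted p up to 0.0228), and against MA the HX58 CB and FB values of -2.59 (0.0066) and -2.48 (0.01) were not called. In the acclimated groups the same LSF2 locus had higher levels, 4.10, 6.07 and 9.49 FPKM in HX17 CA and 5.68, 3.92 and 11.9 in FA against 1.45, 3.01 and 1.96 in MA, without overlap, but its values of 1.62 (0.036) and 1.85 (0.016), and of 1.39 (0.082) and 0.93 (0.15) in HX58 CA and FA, were not called. LSF1, a non-catalytic relative that binds beta-amylases, was called only at BnaA03g27450D in HX17 FB (1.48, 0.0032), lost without any MB library or FB replicates 2 or 3 (0.0135).

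AMY3, the chloroplast alpha-amylase, had 8.02 to 14.4 FPKM at BnaA07g28350D in HX58 MA and 23.2 to 27.8 in FA, a difference of 1.19 ± 0.21 (adjusted p = 0.0023) that was lost in 5 of the 6 smaller fits, all but the one without MA replicate 2 (up to 0.0131); no other tested AMY3 value was called. AMY2 was called only in HX58, at BnaA07g32360D, which had 29.9, 30.0 and 10.4 FPKM in MB, 8.76, 3.3 and 6.23 in CB and 5.84, 6.04 and 5.84 in FB (-1.97, 0.0022, and -1.96, 0.00098). The CB call was lost without MB replicates 1 or 2 or CB replicate 3 and the FB call without FB replicate 2 (adjusted p up to 0.013), and neither was called against MA (-1.07 and -1.09). ISA1, which in Arabidopsis trims amylopectin during synthesis, was lower in HX58 CB at BnaA05g05660D (-1.38, 0.00074) and BnaC04g05440D (-1.30, 0.0017), not against MA (-0.66 and -0.57), and both calls were lost without MB replicate 1 or CB replicate 3, the second also without MB replicate 2 (up to 0.00888). In HX17, BnaA05g05660D was lower in CB (-1.04) and FB (-1.30) and BnaC04g05440D higher in FA (1.32), and in HX58 the latter was lower in FB (-1.04); each of these calls was lost in at least 5 of the 6 smaller fits (up to 0.0193), all control libraries among them. In HX58, FA exceeded CA at these loci by 2.17 ± 0.27 (0.00023) and 1.29 ± 0.17 (0.00037). ISA3, the isoamylase of breakdown, was called once at its leading locus BnaA03g23880D (HX17 FA, 1.48, 0.0036), a call lost without any MA library or FA replicates 1 or 3 (0.0162). The ISA3 locus BnaC08g03940D, named after its values were seen, had 3.1 to 9.11 FPKM over the 18 HX17 libraries and at most 0.469 in the 18 HX58 libraries. BnaC03g28400D, also ISA3, went the other way, with 0.493 to 4.045 FPKM in HX17 and 5.65 to 13.4 in HX58. Both models are short, at 1173 and 828 bases, where that of BnaA03g23880D has 2259.

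The glucanotransferases had higher calls in all freezing groups. DPE2, which takes the glucose of maltose in the cytosol, had 2.26, 2.14 and 2.21 FPKM at BnaC04g01600D in HX17 MB, 8.58, 11.7 and 7.3 in CB and 9.85, 19.6 and 11.9 in FB, without overlap between control and treated libraries. It rose by 1.84 ± 0.21 (adjusted p = 0.00047) and 2.7 ± 0.28 (9.3e-05), and in HX58 by 2.06 ± 0.28 (0.00053) in FA and 1.65 ± 0.26 (0.00091) in FB; HX58 CA (0.45, 0.38) and CB (1.02, 0.0079) were not called. HX17 FA was higher by 1.80 (0.00066), a call lost without MA replicate 1 (0.0054). Between the HX17 controls, MB against MA gave -1.01 (0.02) at this locus, not called, so the cold shock rises start from the lower control. The other DPE2 locus of the same coding length (2826 bases), BnaA05g01890D, was called higher in 1 of the 8. DPE1 at BnaC09g06730D had 4.17, 4.43 and 3.77 FPKM in HX17 MA and 13.8, 11 and 18.4 in FA, a rise of 1.91 ± 0.26 (0.00072), and its HX17 FB value was 1.88 ± 0.22 (0.00017). Its HX58 FA, CB and FB values of 1.72, 1.18 and 1.47 and its HX17 CB value of 1.27 were called with all libraries and lost in 3 or 4 of the 6 smaller fits each, MB replicates 1 and 2 among them for the cold shock values and MA replicate 1 for FA (adjusted p up to 0.0184). The other DPE1 locus of full length, BnaA09g07040D, was called higher in 2 of the 8. The short DPE1 model BnaC02g43370D (390 bases, against 1722), named after its values were seen, was lower in HX58 CB (-4.70, 0.0014, lost without MB replicates 1 or 2 at 0.00925) and FB (-4.46, 0.00025).

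**Figure D5:**
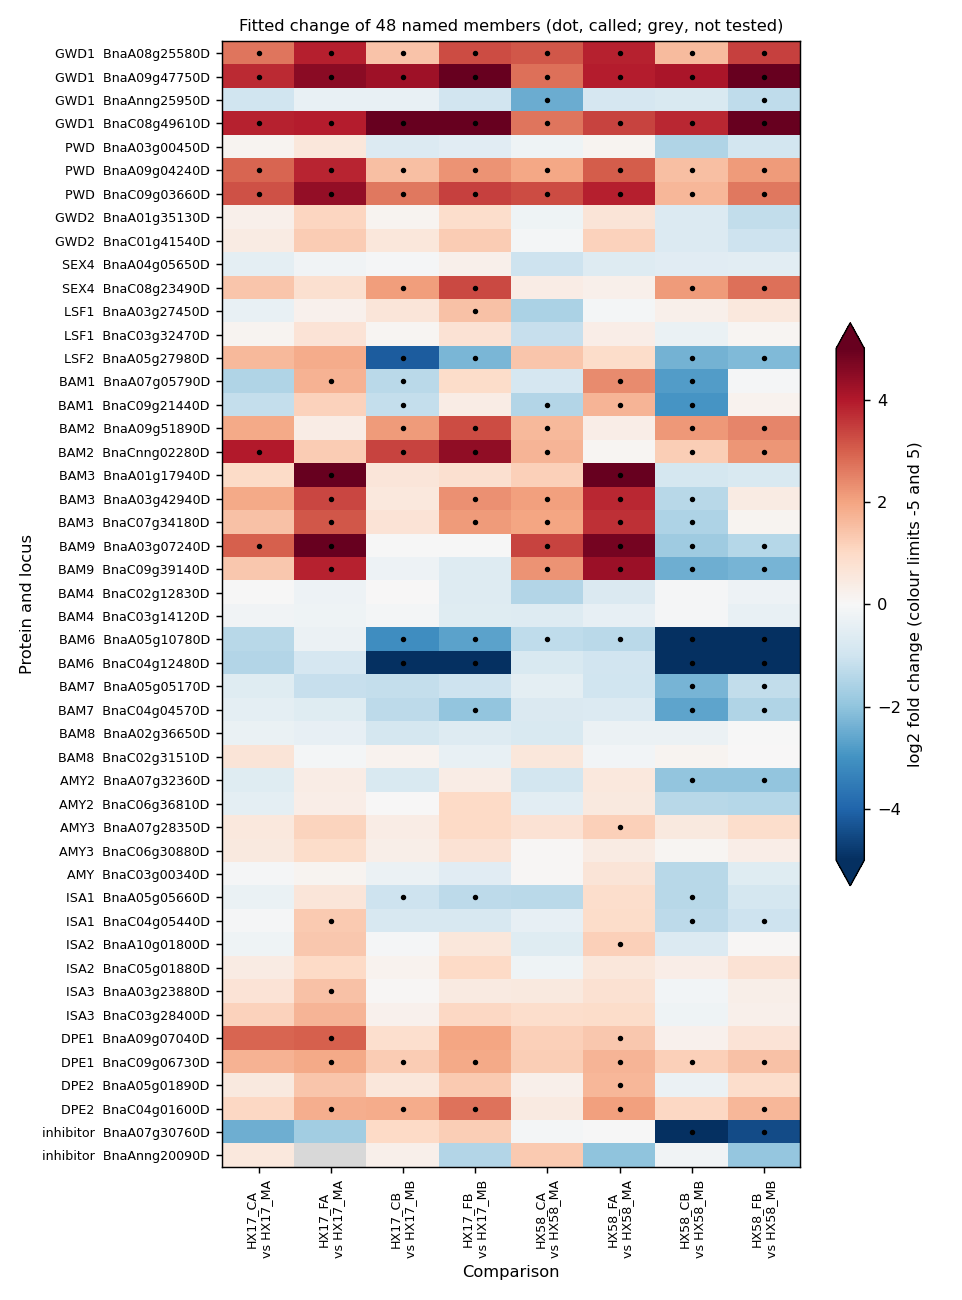
Log2 fold change of the 48 members named by rule in the 8 comparisons of a treatment with its own control, as colour (scale at the right, limits -5 and 5), with loci in rows by protein and comparisons in columns; dots mark called values and the grey cell was not tested. Of GWD1 and PWD, 5 loci are called higher in every column, both BAM6 loci are called lower in all cold shock columns, and both BAM9 loci are called higher in both FA columns.

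Freezing was set against chilling along each route. After acclimation, FA exceeded CA at 5 of 67 members in HX17 and was lower at 1, against 3.35% and 0.867% of all genes, and in HX58 it was higher at 22 of 68 and lower at 2, against 8.4% and 7.56%. After cold shock, FB against CB gave 0 calls in HX17, where 2.38% of all genes were called higher and 0.467% lower. Of the 70 tested members, 25 had an unadjusted p under 0.05, 9 were called by DESeq2 and 1 was called without FB replicate 3. In HX58, FB against CB gave 7 higher and 0 lower of 66, against 2.57% and 0.352% of all genes. This total was 1 without CB replicate 3, 3 without FB replicate 1 or 2 and 4 without CB replicate 1. The medians of the tested members were 0.60 (HX17) and 0.69 (HX58) for FA against CA, and 0.45 and 0.42 for FB against CB. The medians of all tested genes were -0.03 and 0.07, and -0.03 and -0.03.

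Whether the freezing step differed between the routes was tested directly, in a fit added after the data had been seen. In HX58, the change with freezing was more positive after acclimation at 5 members and more negative at 3, of 71 tested, against 2.92% and 3.4% of all genes. More positive were the BAM3 loci BnaA01g17940D (3.69 ± 0.39, adjusted p = 4.3e-05) and BnaC01g21190D (2.97 ± 0.40, 0.00028), the BAM9 loci BnaC09g39140D (1.87) and BnaA10g16290D (1.78) and the BAM4 locus BnaA02g08900D (2.95), the last 3 with adjusted p of 0.0017, 0.0042 and 0.0044. More negative were the BAM2 loci BnaCnng02280D (-2.63 ± 0.32, 0.00011) and BnaA09g51890D (-1.64, 0.0016) and the SEX4 locus BnaA09g32650D (-2.18, 0.0013). At both BAM2 loci FA was itself lower than CA, as given above. The BAM3 calls and that of BnaCnng02280D held with any 1 of the 12 libraries left out, whereas the total of 8 was 4 without FA replicate 1, FA replicate 3 or FB replicate 2, and 5 without CA replicate 2, CA replicate 3 or CB replicate 3. In HX17, 0 of 72 were called as more positive and only BnaCnng02280D as more negative (-3.80 ± 0.44, 0.0018), against 0.0768% and 0.106% of all genes. This call was lost without CA replicate 2, FA replicates 1 or 2 or CB replicates 1 or 3 (up to 0.0106), and 2 members were called without CB replicate 2. The other loci called in HX58 had HX17 values of the same sign, not called. In the order above they were 3.955 (0.0086) and 2.29 (0.03) for BAM3 and 2.76 (0.043) and 3.12 (0.032) for BAM9. The BAM4 locus had 1.55 (0.14), BnaA09g51890D -2.73 (0.012) and the SEX4 locus -1.73 (0.089).

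The responses of the varieties were compared as an interaction, HX58 minus HX17. For CA 0 of 73 members were called, against 0.114% of all genes higher and 0.055% lower. At an unadjusted p under 0.05 there were 14 members, and DESeq2 called 1. For FA 0 of 75 were called, against 0.114% and 0.116% of all genes. Here 10 members had an unadjusted p under 0.05, and DESeq2 called 3. For CB 0 were higher and 2 lower of 75, against 1.41% and 0.51%, and for FB 0 were higher and 5 lower of 77, against 1.02% and 0.577%. The strongest was an alpha-amylase inhibitor match, BnaA07g30760D, with 30.1, 18.9 and 86.4 FPKM in HX58 MB and 0.737, 1.36 and 0.644 in CB, but 19.1, 7.09 and 13.1 in HX17 MB and 32.4, 10.5 and 47.6 in CB, a difference of responses of -6.69 ± 1.00 (adjusted p = 0.0016). In the HX58 MA libraries it had 16.1, 2.07 and 0.251 FPKM, so the controls themselves spread widely. HX58 CB was lower than MB by -5.70 (0.00031) and FB by -4.49 (0.0027), the latter lost without MB replicates 1 or 3 or FB replicates 2 or 3 (0.0119), and against MA the values of -2.92 and -1.76 were not called. The BAM3 loci BnaA03g42940D and BnaC07g34180D differed in FB by -1.98 ± 0.29 (0.0017) and -2.09 ± 0.36 (0.0044), with the HX58 MB level given above as their base. None of the 7 calls held with each library left out: the CB total was 0 without HX17 MB replicate 2 or HX58 CB replicate 3 and 1 without HX17 CB replicate 3, HX17 MB replicates 1 or 3, HX58 CB replicate 2 or HX58 MB replicates 1 or 2. The FB total was 0 without HX17 FB replicates 1 or 2, any HX17 MB library, HX58 FB replicate 2 or HX58 MB replicate 1, 1 without HX58 FB replicate 1, 2 without HX58 MB replicate 2, and 3 without HX17 FB replicate 3 or HX58 FB replicate 3.

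The other genes of starch metabolism were counted for comparison, 76 loci matched by name, of which 53 belong to synthesis. Of the 40 to 42 tested loci of synthesis, 0 were higher and 0 lower in HX17 CA, 2 and 1 in FA, 4 and 9 in CB and 3 and 9 in FB, and 1 and 6, 3 and 5, 2 and 13 and 2 and 11 in the same HX58 groups, beside the shares of all genes given above for each comparison, such as 16.1% higher and 13.6% lower in HX58 FB. The loci named here were chosen after their values were seen. Unlike the members, they were not checked against the other control group or with a library left out. Granule-bound starch synthase, which makes amylose, had 1369.5, 1061 and 997 FPKM at BnaC05g28330D in the HX58 MB libraries and 114, 81.4 and 66.8 in FB, a fall of -3.74 ± 0.27 (adjusted p = 2.7e-05), and it was lower in HX17 FB by -2.41 ± 0.26 (0.00012). The HX58 libraries did not overlap, and the model is a short one of 669 bases. The glucan phosphorylases, which cut glucose phosphate from glucan chains, had, of 6 tested, 1, 4, 4 and 5 loci called higher in HX17 CA, FA, CB and FB and 0 called lower, and 1, 5, 4 and 5 higher and 0 lower in HX58. Fewer calls fell on the maltose exporter, with 0, 1, 0 and 1 of 5 loci higher in HX17 and 0, 0, 1 and 1 in HX58. The plastidic glucose transporters had 1, 3, 2 and 3 of 7 higher in HX17 and 0, 2, 2 and 2 in HX58. In HX58 CA each of these 2 classes had 1 locus lower. Pullulanase, a debranching enzyme, rose at BnaA10g25820D from 0.507, 0.524 and 0.176 FPKM in HX17 MB to 8.42, 14.0 and 8.22 in FB (4.70 ± 0.44, 5.8e-05) and from 7.12, 8.03 and 6.71 in HX58 MB to 32.5, 28.3 and 26.1 in FB (1.96 ± 0.17, 4.6e-05).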

How the data were processed

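Total RNA of leaves was sequenced in 36 libraries. Per the labels, the methods and the submitters' processing notes, the authors aligned reads with HISAT2 2.0.4 to the annotated Brassica napus genome of Genoscope, and counted them with HTSeq 0.9.1. Coordinates are as deposited (assembly version: not given in the sources used here), with none converted. The deposited table holds raw counts per gene and FPKM values per gene and library, the latter made by the authors. Its columns of the authors' own comparisons (fold changes and p-values) were not used. Summed over all libraries, the counts outnumber the pairs among the clean reads of the study, but whether mates were counted singly, or a read at several genes, was not tested; how reads shared by near-identical A and C copies were counted was not stated. Bounds from a floor of 3 counts cover counting error only. Gene models here are coding lengths.

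Members and lists were chosen with earlier results of these data known. Counts were tested with edgeR 4.0.16 (R 4.3.3; TMM scaling, low counts removed by filterByExpr at 10 per library and 15 in all, quasi-likelihood F-test, Benjamini-Hochberg adjustment over all genes tested), in a fit of the groups compared; interactions used 12 libraries. The SE is the absolute log2 fold change divided by the square root of F. Named were, per Swiss-Prot protein, the 2 loci with the highest mean FPKM of at least 1, the largest called rise and fall of each comparison with a mean CPM of at least 1, the smallest adjusted p per direction in each interaction, and members called the same way in all 8 comparisons; others are said to be named after their values were seen, as are the C01 locus of BAM3, BnaA10g16290D of BAM9 and BnaA09g32650D of SEX4. Pathway genes came from a list of protein names. Alternatives were DESeq2 1.42.0, RLE scaling, no filter, another threshold, 1 model of all 36 libraries, the replicate block, the other control group and leaving out each library. The test of acclimation against freezing was added after seeing the data. Scripts were tested on simulated counts (Python 3.11.15, pandas 2.3.3, numpy 2.4.6, matplotlib 3.10.9).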

Additional observations from a re-analysis of the deposited data

Results flagged for a closer look

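The response to the CB treatment differed between the varieties, by the interaction test of edgeR (HX58 minus HX17, log2), at the alpha-amylase inhibitor match BnaA07g30760D (-6.69, called in 9 of 12 fits with 1 library left out) and the BAM2 locus BnaCnng02280D (-2.17, 3 of 12). The response to FB differed at BnaA07g30760D (-5.81, 4 of 12), the AMY2 locus BnaA07g32360D (-2.46, 1 of 12) and the BAM3 loci BnaC07g34180D (-2.09, 1 of 12), BnaA03g42940D (-1.98, 3 of 12) and BnaC01g21190D (-2.42, 1 of 12).

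The effect of freezing differed between acclimated and unacclimated seedlings, by the test added after seeing the data. In HX17 the difference was called only at BnaCnng02280D (-3.80, called in 7 of 12 smaller fits). In HX58 the difference was 3.69 at BnaA01g17940D and 2.97 at BnaC01g21190D of BAM3 and -2.63 at BnaCnng02280D (12 of 12 each), -2.18 at BnaA09g32650D of SEX4 (11 of 12), -1.64 at BnaA09g51890D of BAM2 (9 of 12), 1.87 at BnaC09g39140D and 1.78 at BnaA10g16290D of BAM9 (7 and 2 of 12), and 2.95 at BnaA02g08900D of BAM4 (2 of 12).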

How the results depend on the processing

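Counts of called members within 1.5 times the value in the report are not repeated. In 1 model of all 36 libraries they were 20 (HX17 CA), 16 (HX17 FA against CA), 9 (HX17 FB against CB), 2 (HX58 MB against MA), 1, 5 and 3 (interactions CA, CB and FB) and 6 (acclimation and freezing, HX17). With DESeq2 they were 27, 16 and 9 for the same HX17 comparisons, 12 (HX58 FB against CB), 3 and 15 (MB against MA, HX17 and HX58), 1, 3, 10 and 12 (interactions CA, FA, CB and FB) and 7 and 15 (acclimation and freezing, HX17 and HX58). RLE scaling gave 2 (interaction FB). At an adjusted p under 0.05 without a fold limit they were 27, 39, 30 and 45 (HX17 CA, FA, CB and FB), 30 (HX58 CA), 21 and 37 (FA against CA), 9 and 14 (FB against CB), 2 and 15 (MB against MA), 1, 3, 13 and 13 (interactions) and 7 and 21 (acclimation and freezing). Without a filter they were 17 (HX17 CA), 12 (HX17 FA against CA), 4 (HX17 FB against CB), 10 (HX58 MB against MA), 1 and 5 (interactions CA and CB) and 3 (acclimation and freezing, HX17). The other control group gave 17 (HX17 CA) and 18 (HX58 CB), and turned BnaC03g00340D in HX58 CA to -1.0, BnaC07g34180D, BnaA03g42940D and BnaA03g07240D in HX58 CB to 0.25, 0.11 and 0.26, and BnaA03g07240D in HX58 FB to 0.56. The cause was not tested.

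With 1 library left out the counts ranged from 0 to 12, 19 to 23, 6 to 16 and 16 to 24 (HX17 CA, FA, CB and FB), 5 to 17, 21 to 26, 22 to 37 and 21 to 33 (HX58), 4 to 8 and 19 to 24 (FA against CA), 0 to 1 and 1 to 6 (FB against CB), 0 to 0 and 0 to 2 (MB against MA), 0 to 3 and 0 to 5 (interactions CB and FB) and 0 to 2 and 4 to 11 (acclimation and freezing). Replicate numbers did not pair the samples: correlations of same-numbered deviations ran from -0.55 to 0.24, and 0 of 14 comparisons had every pair over 0.1. With the replicate block the counts were 2 (HX17 CA), 11 (HX58 CA), 10 (HX17 FA against CA), 1 (HX58 MB against MA) and 1 (interaction FB), and 25 of 135 called values of named genes lost their call.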
